A study of Rattus norvegicus with 6 samples.

Results

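Intronic circular RNAs (ciRNAs) were examined in rat lung as 1 of the 2 types of circular RNA (circRNA) in a study of pulmonary fibrosis (PF). They were taken as all entries of the deposited circRNA table that carry the type ciRNA, which gave 433 of 5216 circRNAs. The other 4783 were exonic circRNAs. The table gives back-splicing reads, the reads that cross the junction closing a circle, in 3 control libraries and 3 PF model libraries of lung. Per the study's methods, Sprague-Dawley rats 7 weeks old were given bleomycin at 7 mg/kg by a single intratracheal instillation (PF model) or saline (control), and lungs were taken after 28 days. The labels name the tissue and the 2 groups, and give each library as 1 sample. No genotype or allele is named for either group. The methods describe 6 libraries, 3 of PF model rats and 3 of control rats, while the labels do not tie a library to a rat, so p values measure the spread between these samples.

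An intron is cut out of a precursor RNA as a lariat, in which the 5′ end of the intron is joined to the branch point, a base shortly before the 3′ splice site. The debranching enzyme DBR1 usually opens the lariat, and the RNA is then degraded. A ciRNA is a lariat that has escaped debranching and lost its tail after the branch point, so that it runs from the 5′ splice site to the branch point, and some ciRNAs stay in the nucleus near the gene they come from. Circles of whole introns, closed from one splice site to the other, are a further kind of intron-derived circle. Exonic circRNAs form differently, by joining the end of an exon back to the start of the same or an earlier exon.

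The ciRNAs came from 383 host genes, all of them typed as protein-coding in the table, and from 410 distinct introns. Of the host genes, 153 also gave an exonic circRNA, which was 39.9% of the ciRNA hosts and 5.77% of the 2651 exonic hosts. Together the ciRNAs had 616 back-splicing reads, or 4.13% of the 14904 in the table, although they made up 8.30% of the circRNAs. A single read in a single library was the whole record of 319 ciRNAs (73.7%), and 85 more had 2 reads. The highest total was 21 reads.

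The library totals of back-splicing reads lay between 2183 and 2667 in control and between 2037 and 2964 in PF model libraries. Markers of the lung epithelium had a summed FPKM between 9006 and 10815 in control and between 8285 and 11222 in PF model libraries (13 of 14 markers found). Single markers differed widely, with means over all libraries from 2.22 FPKM (Nkx2-1) to 5443 FPKM (Scgb1a1). FPKM is the level of a linear RNA scaled to its length and the depth of the library. The sum of 14 of 15 fibroblast, matrix and smooth muscle markers lay between 369 and 420 in control and between 422 and 530 in PF model libraries. Genes with high levels weigh most in this sum, above all Col3a1, with means of 170 FPKM in control and 210 in PF model libraries. The entries of Nkx2-1 and Col3a1, like those of some other markers, also hold transcripts of another gene name, which their FPKM includes. The log2 fold change was above 0 in 11 of the 14 and below 0 in 3, among them Eln. None of these genes passed limma at an adjusted p below 0.05. In lung tissue, more cells of a type and more RNA per cell cannot be told apart. The sum of 6 cardiac muscle markers was 23.4 FPKM in PF model 3 and between 5.95 and 10.4 in the other libraries. Myh6, the heart myosin heavy chain that defines this list, was listed at 0 in all controls and PF model 1, at 0.0339 in PF model 2 and at 5.11 in PF model 3. The part of these markers in the results was not tested, and the share and the number of ciRNAs are also given without PF model 3.

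One ciRNA-bearing intron is shown with sequence, because its end falls inside a miRNA gene. Ddx5, an RNA helicase with roles in splicing and miRNA processing, gave 2 ciRNAs from a single intron of 1251 bases on the minus strand of chromosome 10. The first, ciRNA152, covered the whole intron from 94982052 to 94983302 (1 read, control 3). The second, ciRNA12, stopped 3 bases before the 3′ splice site (1 read, control 1). The gene Mir3064 lies across this 3′ splice site, from 94982051 to 94982117. Its hairpin in RefSeq (assembly GRCr8) has the same length of 67 bases, was matched by symbol and strand, and its base 66 falls on the last base of the intron. The mature strand rno-miR-3064-3p takes hairpin bases 42 to 65. In the lines that follow, capitals mark the seed (bases 2 to 8) in the mature miRNA, and in the hairpin end the 3 last bases of the intron, which ciRNA152 includes and ciRNA12 lacks.
rno-miR-3064-3p: uUUGCCACacugcaacaccuuaca
Mir3064 hairpin, bases 42 to 67: uuugccacacugcaacaccuuaCAGa
The circle of ciRNA12 thus ended at hairpin base 63 and left out the final 2 bases of the mature miRNA, whereas ciRNA152 held the mature sequence whole. With 1 read each, neither end was seen a second time. As a linear transcript Mir3064 had 97.3, 106 and 145 FPKM in the controls and 123, 107 and 74.5 in the PF models. These levels overlapped between the groups, and reads of Ddx5 RNA over the same bases cannot be separated from them.

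All 433 ciRNAs began exactly at the 5′ splice site of their intron, which the class requires and is therefore no finding. The other end varied. It lay at the 3′ splice site itself in 181 ciRNAs (41.8%), which thus covered the whole intron, and 1 to 9 bases before it in 96 (22.2%). The end lay 10 to 50 bases before the 3′ splice site, the stretch in which branch points are usually found, in 73 ciRNAs (16.9%). It lay 51 to 100 bases before it in 15, over 100 and up to 1000 bases in 35 and over 1000 bases in 32. The circle of Ccdc180 alone passed the annotated 3′ splice site, by 3 bases. The median ciRNA stopped 2 bases short of the 3′ splice site and covered 99.8% of its intron.

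The whole-intron form made up 43.2%, 47.4% and 41.2% of the ciRNAs found in control 1, 2 and 3, and 52.1%, 40.8% and 41.2% in PF model 1, 2 and 3. The groups overlapped, with means of 43.9% ± 3.12 (SD, n = 3) in the controls and 44.7% ± 6.41 (SD, n = 3) in PF model libraries. The difference of 0.769 percentage points was smaller than the spread between libraries (exact permutation test, two-sided, p = 1, where 3 against 3 can give no p below 0.1). This comparison was not among those planned.

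The position of the end differed by the strand of the host gene. Of the 293 ciRNAs from plus-strand genes 153 (52.2%) covered the whole intron, against 28 of the 140 from minus-strand genes. Within each library, the whole-intron share was between 52.0% and 62.5% on the plus strand and between 13.3% and 33.3% on the minus strand. It was higher on the plus strand in 6 of 6 libraries, by 31.4 percentage points ± 7.36 (SD of the 6 differences). The exact sign-flip permutation test over the 6 libraries, two-sided, gave the smallest p it can give, 0.03125 (0.0365 after Benjamini-Hochberg adjustment over 7 within-library comparisons). Among ciRNAs that ended over 1000 bases short, 19 came from the plus and 13 from the minus strand.

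**Figure D1:**
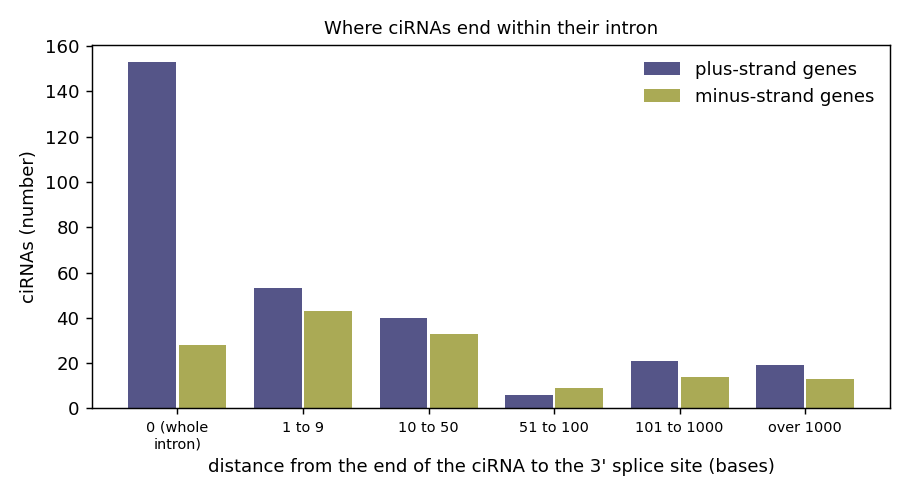
Number of ciRNAs (vertical axis) by the distance in bases from the end of the circle to the 3′ splice site of the intron (horizontal axis), with 1 bar for host genes on the plus strand and 1 for those on the minus strand; the Ccdc180 ciRNA, which passes the splice site, is not drawn. The bar of whole introns on the plus strand, 153 ciRNAs, stands above all the others, while the minus strand has 28 whole introns and 43 ciRNAs that end 1 to 9 bases short.

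Plus-strand genes also gave more of the ciRNAs. They gave 67.7% of all ciRNAs, against 50.6% of the exonic circRNAs and 50.6% of the annotated linear transcripts. The plus-strand share of ciRNAs was 65.4%, 73.7% and 63.7% in control 1, 2 and 3, and 67.6%, 70.4% and 70.6% in PF model 1, 2 and 3. Among the exonic circRNAs of the same libraries it was between 50.2% and 53.4%. The ciRNA share was the higher in 6 of 6 libraries, by 17.5 percentage points ± 4.28 (SD), with p = 0.03125 in the exact sign-flip test (adjusted p = 0.0365). Both strand comparisons were chosen after the counts had been seen. The 6 libraries share 1 caller and 1 annotation, and whether these treat both strands alike was not tested.

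ciRNAs were short. Their genomic span ran from 120 to 63592 bases with a median of 844, and the middle 50% lay between 511 and 1407. The exonic circRNAs had a median span of 7775 bases, which includes the introns between their exons. By library, the median ciRNA span was 761, 998 and 752 bases in control 1, 2 and 3, and 920, 767 and 802 in PF model 1, 2 and 3. The exonic medians in the same libraries lay between 6703 and 7446 bases. The difference, which averaged -6195 bases ± 273 (SD), had the same sign in 6 of 6 libraries (exact sign-flip test, p = 0.03125, adjusted p = 0.0365). Against exonic circRNAs of 1 exon, a comparison added after the data were seen, it reversed: their library medians averaged 495 bases ± 21.0 (SD), and the ciRNAs were longer in 6 of 6 libraries, by 338 bases on average (exact sign-flip test, p = 0.03125). The spans of the groups overlapped, at 837 bases ± 140 (SD, n = 3) in the controls and 830 ± 80.2 (SD, n = 3) in PF model libraries (exact permutation test, p = 1).

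The introns of the ciRNAs were also shorter than the introns beside exonic circRNAs. The length of introns in general was not measured here. The introns that gave ciRNAs had a median length of 1012 bases, whereas the introns on both sides of exonic circRNAs averaged a median of 7570 bases. By library the medians lay between 934 and 1228 bases for the ciRNA introns and between 8866 and 9782 for the flanking introns, without overlap (difference in 6 of 6 libraries, exact sign-flip p = 0.03125, adjusted p = 0.0365). This comparison was not among those planned. The median ciRNA covered 99.8% of its intron, so the ciRNA side of it largely repeats the spans above. The longest ciRNA came from Plxna2, a semaphorin receptor, and covered 63592 bases of a 63598-base intron with 1 read in PF model 2. Next were Ints6, a subunit of the Integrator complex, with 15252 bases (2 reads in control 3) and Ube4b, a ubiquitin ligase, with 12359 bases (1 read in PF model 2). The shortest came from Timeless, a replication fork protein, with 120 bases (1 read, PF model 1), from the transcription elongation factor Supt5h with 128 bases (1 read, PF model 3) and from Ccdc180 with 135 bases (1 read, control 1).

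**Figure D2:**
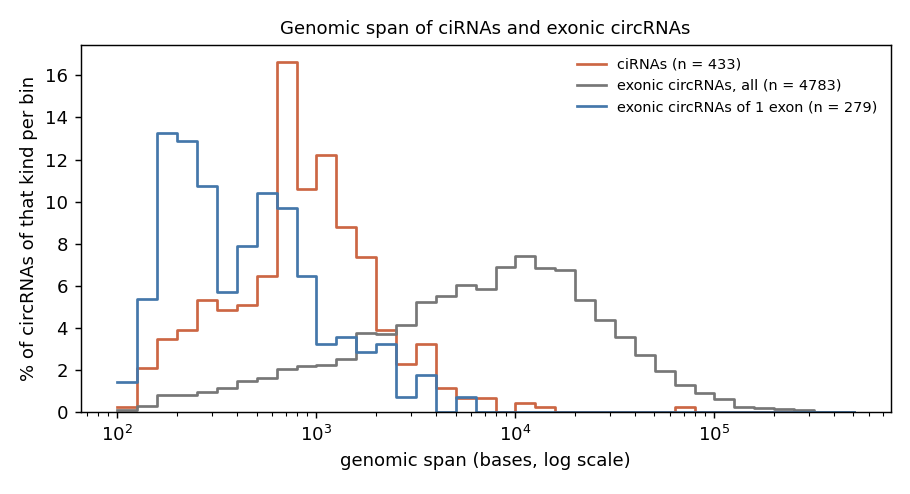
Genomic span in bases (horizontal axis, log scale) against the percent of circRNAs of each kind in a bin of that span (vertical axis), for ciRNAs, all exonic circRNAs and exonic circRNAs of 1 exon. The ciRNAs, with a median of 844 bases, lie between the circRNAs of 1 exon (median 403) and all exonic circRNAs (median 7775).

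ciRNAs seldom recurred. Of the 433, 415 were found in a single library, 12 in 2 libraries, 2 in 3, 3 in 4 and 1 in 5, and none was found in all 6. Among exonic circRNAs, 25.4% were found in 2 or more libraries, and 83 were found in all 6. Of the ciRNAs found in a library, 11.1%, 7.02% and 11.2% in control 1, 2 and 3 and 9.86%, 8.45% and 11.8% in PF model 1, 2 and 3 had a read in any other library. The share among exonic circRNAs was between 46.2% and 53.1%. The difference of -40.4 percentage points ± 4.27 (SD) had the same sign in 6 of 6 libraries (exact sign-flip test, p = 0.03125, adjusted p = 0.0365), although these 6 values are not fully independent, since libraries share circRNAs.

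Lower read numbers went with this. A detected ciRNA had on average between 1.24 and 1.42 reads in a library, and an exonic circRNA between 1.89 and 2.21 (6 of 6 libraries, exact sign-flip p = 0.03125, adjusted p = 0.0365). This comparison of mean reads was not among those planned. At an equal total of exactly 2 reads, 6 of 85 ciRNAs (7.06%) and 274 of 987 exonic circRNAs (27.8%) had their reads in 2 libraries. The share by library differed by -29.2 percentage points in this comparison (exact sign-flip p = 0.03125). Several reads in 1 library and none elsewhere were seen for 96 ciRNAs, among them Ddx52 (4 reads in control 1), Spag17 (4 in control 2) and C3 (4 in PF model 3), which were named after their values were seen. The reads carry no molecular identifiers, so several reads may come from 1 molecule.

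**Figure D3:**
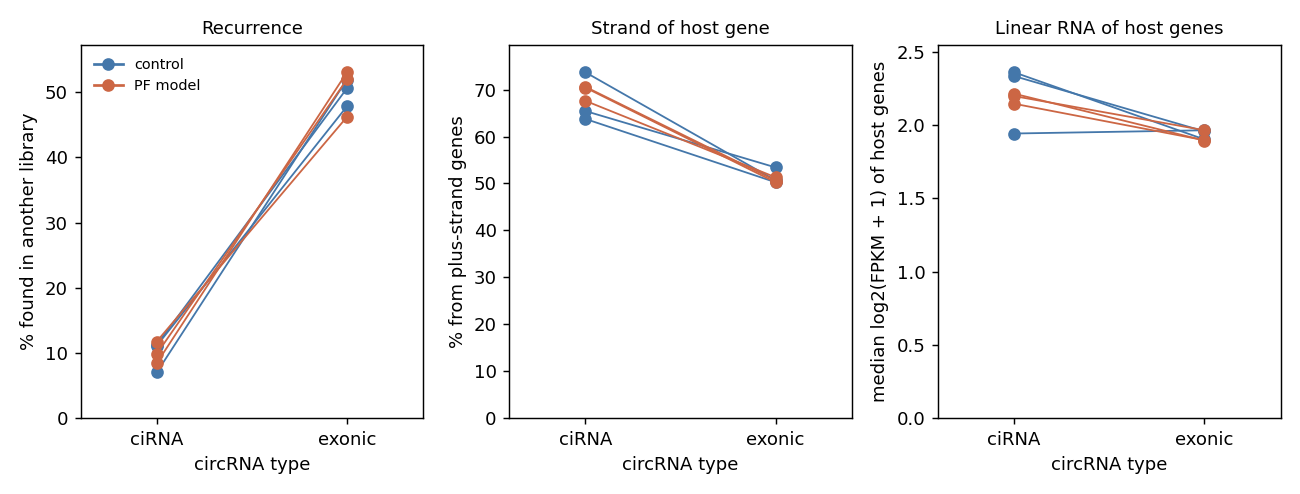
Each line joins the value of ciRNAs and of exonic circRNAs in 1 library: the percent of circRNAs also found in another library (left), the percent from plus-strand genes (middle) and the median log2(FPKM + 1) of the linear RNA of the host genes (right). Recurrence lies between 7.02% and 11.8% for ciRNAs and between 46.2% and 53.1% for exonic circRNAs, and in the right panel the line of control 3 runs against the other 5.

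Any pair of libraries shared between 0 and 7 ciRNAs. The median was 3.5 for the 6 pairs within a group and 3 for the 9 pairs across groups. Control libraries held 210 ciRNAs in sum and PF model libraries 235, and 12 ciRNAs were found in both. No ciRNA was found in all 3 libraries of 1 group and in none of the other. Of the 433 ciRNAs, 415 were found in a single library and so could not be found in both groups. The same counts were not made for exonic circRNAs, of which 25.4% were found in 2 or more libraries. Of the 18 ciRNAs in 2 or more libraries, 13 (72.2%) covered the whole intron, as did 168 (40.5%) of the 415 found in a single library. Plus-strand genes, where whole introns were more frequent, gave 15 of the 18 and 278 of the 415.

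The ciRNA with the most reads came from Ppip5k1, a kinase that makes inositol pyrophosphates. It covered a whole intron of 3678 bases on the minus strand of chromosome 3, from 113288395 to 113292072. It had 2, 4 and 4 reads in control 1, 2 and 3, and 9, 0 and 2 in PF model 1, 2 and 3. PF model libraries thus held both the highest and the lowest count. In edgeR its log2 fold change, model over control, was 0.14 (adjusted p = 0.990). Without PF model 1 the fold change was -1.70, and without control 1 it was -0.12, so the direction was not stable. The 0 in PF model 2 allows a share of up to 0.147% of its back-splicing reads, taking 3 reads as the floor. Linear Ppip5k1 was at 1.52, 1.74 and 1.81 FPKM in control and 1.70, 1.38 and 1.52 FPKM in PF model libraries, overlapping levels (limma log2 fold change -0.09 on the log2(FPKM + 1) scale, adjusted p = 0.954).

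Sftpb, which encodes surfactant protein B, gave the ciRNA with the second most reads. It covered a whole intron of 467 bases on the plus strand of chromosome 4, from 100174097 to 100174563. It had 1, 3 and 1 reads in the controls and 0, 0 and 2 in the PF models, and the counts overlapped. Another Sftpb intron gave a circle of 638 bases with 2 reads in control 1. Linear Sftpb was at 327, 304 and 285 FPKM in the controls and 331, 309 and 292 FPKM in the PF models, a level above that of 99.7% of the genes tested. Its log2 fold change was 0.03 (limma adjusted p = 0.993). Sftpa1, for surfactant protein A, gave 1 ciRNA with 2 reads in PF model 2, and its linear level averaged 318 FPKM ± 55.0 (SD, n = 3) in the controls and 399 ± 98.2 (SD, n = 3) in PF model libraries.

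Col4a3 encodes a chain of the type IV collagen of basement membranes, and its ciRNA was seen in 4 libraries. It covered a whole intron of 436 bases on the plus strand of chromosome 9, from 88446566 to 88447001. It had 0, 0 and 1 reads in control and 2, 1 and 2 in PF model libraries, so that the lowest PF model count equalled the highest control count. In an edgeR fit of circRNAs with at least 5 reads its log2 fold change was 2.04 (adjusted p = 0.980). The linear levels of Col4a3 overlapped, at 3.62 FPKM ± 0.399 (SD, n = 3) in the controls and 3.67 ± 0.327 (SD, n = 3) in PF model libraries.

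The ciRNA of Rsrp1, an arginine- and serine-rich protein gene, was also seen in 4 libraries, with 2, 0 and 1 reads in control and 0, 2 and 1 in PF model libraries. It stopped 429 bases before the 3′ splice site of a 624-base intron on chromosome 5, from 153261809 to 153262003. A ciRNA is counted by its exact ends, so this end is the same in each library by definition. Linear Rsrp1 was at 25.4 FPKM ± 2.22 (SD, n = 3) in the controls and 20.4 ± 6.04 (SD, n = 3) in PF model libraries (limma adjusted p = 0.95).

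Further ciRNAs in 2 libraries were named after their values were seen. The ciRNA of Zfp68, a zinc finger gene, had 5 reads in control 3 and 1 in PF model 1. That of Errfi1, an inhibitor of EGF receptor signalling, had 4 reads in control 3 and 2 in PF model 3. The ciRNA of Ctnna1, the alpha catenin of adherens junctions, had 2 reads each in PF model 2 and 3 and none in the controls.

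**Figure D4:**
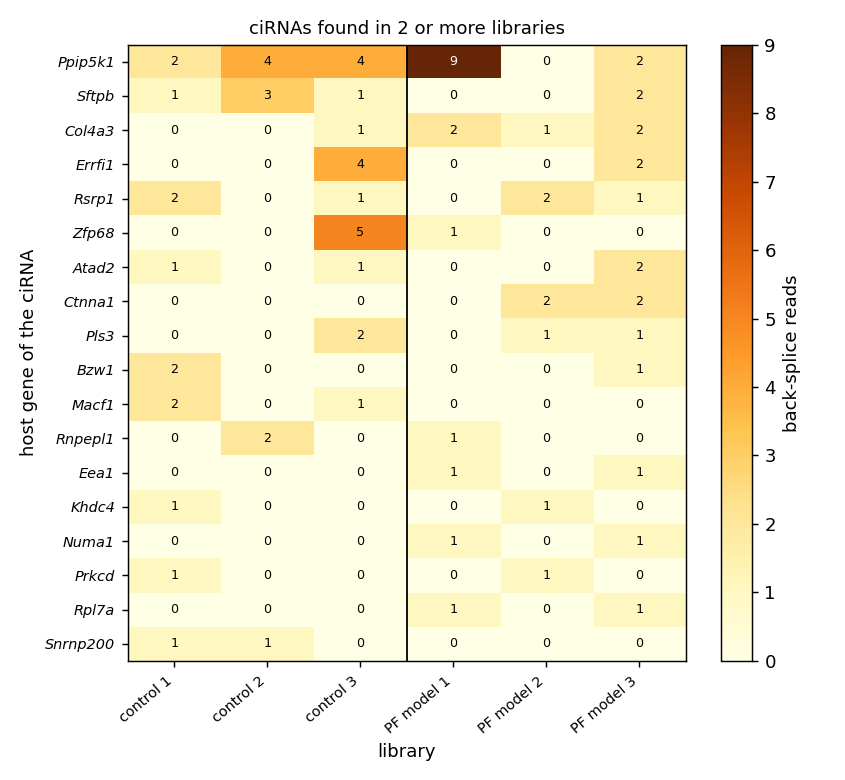
Back-splicing reads of the 18 ciRNAs found in 2 or more libraries, with 1 row per ciRNA named by its host gene and 1 column per library; the shade and the printed number give the reads. The count of 9 for Ppip5k1 in PF model 1 is the highest, and no row is filled in the 3 libraries of 1 group and empty in the other.

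Taken as a class, ciRNAs did not differ between the groups in their share of the back-splicing reads beyond the spread between libraries. There were 109, 81 and 111 ciRNA reads in control 1, 2 and 3, and 88, 89 and 138 in PF model 1, 2 and 3. As a share of the library's back-splicing reads this was 4.20% (95% exact Clopper-Pearson interval 3.46% to 5.04%), 3.71% (2.96% to 4.59%) and 4.16% (3.44% to 4.99%) in the controls. In the PF models it was 3.58% (2.88% to 4.39%), 4.37% (3.52% to 5.35%) and 4.66% (3.93% to 5.48%). PF model 1 had the lowest share and PF model 3 the highest, with the controls between them. The means were 4.02% ± 0.272 (SD, n = 3) and 4.20% ± 0.557 (SD, n = 3), a difference of 0.177 percentage points (exact permutation test, two-sided, p = 0.6). Without PF model 3, the library with the cardiac markers, the difference was -0.0496 points. The intervals cover counting error only.

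The number of distinct ciRNAs was 81, 57 and 80 in control 1, 2 and 3, and 71, 71 and 102 in PF model 1, 2 and 3. At an equal depth of 2037 back-splicing reads, the total of the smallest library, 67.9, 54.2 and 65.3 ciRNAs would be expected in the controls and 60.2, 71.0 and 76.9 in the PF models. The groups overlapped, with 62.5 ± 7.27 (SD, n = 3) against 69.4 ± 8.49 (SD, n = 3), and the exact permutation test gave p = 0.4. The difference of 6.89 ciRNAs fell to 3.11 without PF model 3 and to 2.76 without control 2, and it was 11.5 without PF model 1. After Benjamini-Hochberg adjustment over the 4 comparisons of group values, each of these exact tests had p = 1. An exact test of 3 against 3 libraries can give no p below 0.1, however large the difference. It therefore cannot settle whether the number of ciRNAs differed between the groups.

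**Figure D5:**
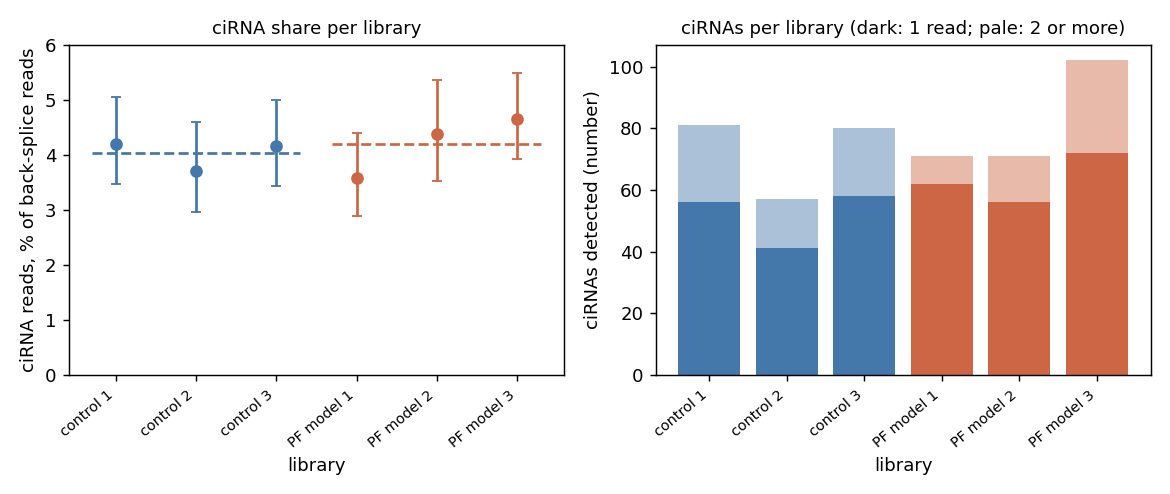
Left: ciRNA reads as a percent of the back-splicing reads of each library, with 95% Clopper-Pearson intervals as bars and group means as dashed lines. Right: number of ciRNAs found per library, split into those with 1 read (dark) and with 2 or more (pale). The intervals of all 6 libraries overlap, and PF model 3 has the most ciRNAs, 102.

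Single ciRNAs could hardly be tested between the groups. At least 10 reads over the 6 libraries were required, which 226 circRNAs reached and among the 433 ciRNAs that of Ppip5k1 alone. edgeR called 13 of the 226 at an unadjusted p of at most 0.05 (5.75%) and 1 at an adjusted p below 0.05 (0.442%), none of them a ciRNA. With at least 5 reads, 6 ciRNAs were tested and 0 passed an unadjusted p of 0.05, while 29 of 554 circRNAs of both types passed. With no filter all 433 were fitted and 0 passed, while 24 of 5216 circRNAs of both types passed. DESeq2 called 0 ciRNAs as well, and 5 of the 226 circRNAs. A ciRNA with 1 or 2 reads in sum cannot reach such a call, so these counts say little about the other ciRNAs.

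In 18 introns more than 1 ciRNA was found, sharing the 5′ splice site and differing at the other end. They held 41 ciRNAs, and in 12 of these introns the ends lay within 10 bases of each other. There were 3 ciRNAs from 1 intron each in Hnrnpk and Ptbp1, which encode RNA-binding splicing regulators, in Clk4, a kinase of splicing factors, and in Ralgapa2, a regulator of Ral GTPases. The Hnrnpk circles ended 239 to 241 bases before the 3′ splice site of a 1378-base intron, with 1 read each in control 2, control 3 and PF model 3. Those of Ptbp1 ended 302 to 306 bases before it, with 1 read in control 3 and 2 in PF model 3. The Clk4 circles ended 676 to 681 bases before the 3′ splice site of a 1524-base intron. Circles with ends a few bases apart were counted as separate ciRNAs, so the recurrence given for single ciRNAs is that of exact ends.

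Other host genes had 3 ciRNAs in more than 1 intron. Eln encodes elastin, and its 3 ciRNAs came from 3 introns, with 3 reads in control 3 and 1 in PF model 1. Linear Eln was at 27.6, 29.7 and 23.9 FPKM in control and 22.1, 24.3 and 22.3 in PF model libraries (limma log2 fold change -0.23, adjusted p = 0.95). Ctsh, a lysosomal protease, Macf1, a linker of the cytoskeleton, and Gtf2i, a transcription factor, had 3 ciRNAs from 2 introns each. Macf1 stood apart among them by its 12 exonic circRNAs, while Ctsh had none. The collagen gene Col1a2 is listed at 2 places of chromosome 4, once as NEWGENE_621351, with an intron of 1075 bases in both. These copies gave 3 ciRNAs that ended 16 to 19 bases before the 3′ splice site, with 3 reads in control 3 and 1 in PF model 3, and reads could have been placed at either copy.

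Most host genes had linear RNA in these libraries. Of the 383 host genes 371 were matched in the linear table, and 355 of these (95.7%) had a mean of at least 1 FPKM, against 64.1% of all genes tested. The median host was at 3.36 FPKM, the median of all genes at 1.70 FPKM. A gene has to be transcribed to give a circle, so this is a description. Compared with exonic hosts, the median log2(FPKM + 1) of ciRNA hosts was 2.33, 2.36 and 1.94 in control 1, 2 and 3, and 2.20, 2.14 and 2.21 in PF model 1, 2 and 3, against values between 1.89 and 1.96 for exonic hosts. It was the higher in 5 of 6 libraries, by 0.27 ± 0.17 (SD), and did not pass the test (exact sign-flip p = 0.0625, adjusted p = 0.0625).

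By the GO terms of the table, 27 of 370 annotated host genes (7.30%) were RNA-binding, against 4.77% of exonic hosts and 4.37% of all annotated genes. They included Hnrnpk, Ptbp1, Pcbp2, Srsf3 and Sfpq. A term for RNA splicing was held by 7 ciRNA hosts (1.89%), among them Dbr1 and the helicase Snrnp200, against 1.11% of exonic hosts. Matrix terms were held by 11 (2.97%), among them Col4a3, Eln, Loxl1, Timp2 and Adamts1, against 1.31% of exonic hosts. Col1a2 and its other listing, NEWGENE_621351, count as 2 of the 11. These shares are descriptions without a test, and the lists are small. The reads of matrix hosts were 2, 2 and 10 in the controls and 4, 1 and 3 in the PF models, so control 3 stood apart.

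None of the 371 host genes was called between the groups by limma at an unadjusted p of at most 0.05 with an absolute log2 ratio of at least 1, where 1.66% of the 19678 genes tested were called. None passed an adjusted p below 0.05 either, where 0.00508% of the genes did. At an unadjusted p of at most 0.05 alone there were 13 hosts (3.50%), against 4.36% of all genes. The median log2 fold change of the hosts was -0.02 and that of all genes was -0.0037.

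Genes that handle lariats and circles were not called either. Of 38 genes listed, 37 were tested, 0 were called by p and ratio and 0 by adjusted p, and 2 had an unadjusted p of at most 0.05 (5.41%). Over all 19678 genes tested these shares were 1.66%, 0.00508% and 4.36%, so the list was near the share of all genes. Their median log2 fold change was 0.01, with 19 above and 18 below 0. Qki, an RNA-binding protein that promotes exon circles, was not analysed here.

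Dbr1, the debranching enzyme, was at 3.52, 3.90 and 3.55 FPKM in the controls and 3.43, 3.31 and 3.36 FPKM in the PF models. The groups did not overlap, but the log2 fold change of -0.09 was small (limma adjusted p = 0.95). Dbr1 itself hosted a ciRNA, a whole intron of 658 bases with 2 reads in PF model 1. Sf3b1, which holds the branch point in the spliceosome, was at 7.34, 7.60 and 7.97 FPKM in the controls and 6.92, 6.53 and 6.03 FPKM in the PF models. All PF model values lay below the controls (log2 fold change -0.21, limma adjusted p = 0.95). The spliceosome component Isy1, the other gene with an unadjusted p of at most 0.05, had 4.50, 4.22 and 4.52 FPKM in the controls and 5.72, 5.66 and 6.04 FPKM in the PF models. All PF model values lay above the controls (log2 fold change 0.33, limma adjusted p = 0.95). Adar, an RNA editing enzyme known to limit circle formation, had overlapping levels of 2.62 FPKM ± 0.231 (SD, n = 3) in the controls and 2.37 FPKM in PF model libraries (adjusted p = 0.95). Mbnl1 and G3bp1 of this list hosted 1 ciRNA each, with 1 read.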

How the data were processed

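Ribosomal RNA-depleted, stranded libraries of lung RNA from 3 control and 3 PF model samples were sequenced by the authors as paired 150-base reads, and grouped here by their labels. The authors trimmed reads with Cutadapt and called circRNAs with TopHat-Fusion and CIRCexplorer; for linear RNA the paper names Bowtie2 and TopHat2, and the submitters' processing notes name HISAT2, StringTie and TopHat. The genome build is not given in the sources used here. The deposited circRNA table holds raw counts of back-splicing reads and SRPBM, a depth-normalised signal by the authors, and the deposited linear table holds FPKM and mean coverage per transcript.

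Gene FPKM was the mean FPKM over the transcripts of a gene, weighted by transcript length, and is not the total over transcripts. Genes with an annotated transcript were used, and their unannotated assembled transcripts were included. Of 22201 such genes, 667 joined transcripts of more than 1 gene name, and their FPKM covers all of these. Genes with FPKM above 0 in at least 3 samples were compared with limma 3.58.1 (trend) on log2(FPKM + 1), for which fold changes understate those of low genes. circRNAs of both types with at least 10 reads were compared with edgeR 4.0.16 (TMM, quasi-likelihood), with DESeq2 1.42.0 as an alternative, in R 4.3.3. Adjusted p values are Benjamini-Hochberg. Single values were compared with exact two-sided tests in Python 3.11.15, by permuting samples or by flipping the sign of within-library differences. Other filters, scalings, pseudocounts (0.1 in place of 1) and left-out samples were tried. The scripts were tested on simulated data. The members and lists were chosen with earlier results of these data known. Named were ciRNAs with at least 10 reads or in at least 4 libraries, the 3 longest and shortest, hosts with at least 3 ciRNAs, hosts among markers, and Dbr1, Sf3b1, Qki and Adar; exceptions are said. Some items that fall under this rule are not reported here.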

Additional observations from a re-analysis of the deposited data

How the results depend on the processing

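The counts of ciRNAs called by edgeR (0) and of handling genes called by limma (0) were unchanged under the alternatives run for them. Without control replicate 1, 1 host gene, Frs2, was called by p and ratio, and the count of hosts called ranged from 0 to 1 when each sample was left out. When each sample was left out, the difference in ciRNA share, model minus control, ranged from -0.0496 to 0.488 percentage points, and by summed SRPBM it was -20.4 SRPBM. With ciRNAs of at least 2 reads only, the difference was -0.260 percentage points in share, -2.03 in the number at equal depth, -206 bases in median span and 9.09 percentage points in whole introns. When each sample was left out, these ranged from 2.76 to 11.5 ciRNAs, from -52.3 to 73.4 bases and from -2.93 to 2.70 points. Against circRNAs of 1 exon the span difference was 338 bases. The Ppip5k1 log2 fold change ranged from -1.70 to 0.66 and turned to -0.12 without control replicate 1 and to -1.70 without model replicate 1; the cause was not tested. Same-numbered samples did not deviate together (r between -0.126 and 0.0780). With 3 samples per group this check cannot settle whether the numbers pair samples. At an unadjusted p of at most 0.05, in place of 13 circRNAs of both types, DESeq2 called 5, the filters of 5 reads and of none 29 and 24, and leaving out a sample 8 to 15. For genes, a mean of at least 1 FPKM left 51 calls in place of 327. With a replicate block, edgeR called 2 circRNAs, the Ppip5k1 value was -0.36, the share difference stayed at 0.177, and no ciRNA, host gene or handling gene was called by p and ratio or by adjusted p. The 1 circRNA called at an adjusted p below 0.05 was then not called. The comparisons within libraries kept their direction in all alternatives but the one against single exons. The depth of 2037 to 2964 back-splicing reads limits single ciRNAs to a few reads each.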

Other observations

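Small genes lay inside further ciRNAs, chosen here after their values were seen. The whole-intron ciRNA of Rpl7a, a ribosomal protein gene, had 1 read each in PF model 1 and 3 and held the 71-base gene RF00049, and the ciRNA of Eif4a2, a translation initiation helicase, held the 129-base gene RF00092. In the Ppip5k1 ciRNA lay the 78-base gene AC116071.1, at between 0.507 and 1.61 FPKM over the 6 libraries. The ciRNAs of Cacna1d and Plxna2 held a small gene on the opposite strand.

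ciRNAs lay nearer the 3′ end of their host transcripts than exonic circRNAs did, as a description: the median position, from 0 at the start to 1 at the end of the transcript, was 0.665 for 403 ciRNAs and 0.538 for 4474 exonic circRNAs.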
